A study of Homo sapiens with 9 samples.

Results

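The genes described here are 36 human genes of the G2 phase and mitosis, chosen by name as known components of the machinery that takes a cell from the end of DNA replication through division. The table holds 32997 genes. All 36 were found in it under their symbols, in 9 RNA-seq libraries of ES-2, a human ovarian cancer cell line. The libraries fall into 3 groups of 3: cells with an empty vector, cells with OTUB2 overexpression and cells with SNX29P2 overexpression. The vector cells are the control. The product of OTUB2 removes ubiquitin from proteins, while SNX29P2 is a transcribed pseudogene related to the sorting nexin gene SNX29. All groups grew in RPMI-1640 medium with serum and had no further treatment, per the labels, which give neither a promoter nor a number of clones for the constructs. Whether the 3 libraries within a group are separate cultures is not stated. The p-values below therefore set each difference only against the spread of these samples, and part of that spread may be technical. By role the set holds 5 genes of the cyclin and CDK1 module, 7 of mitotic kinases and the spindle checkpoint, 3 of anaphase onset, 5 of the kinetochore, 5 kinesins, 7 of spindle assembly, 2 of cytokinesis and 2 of chromosome structure.

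Entry into mitosis is driven by CDK1 bound to a B-type or A-type cyclin. The Aurora and Polo-like kinases then build the spindle, kinetochores attach chromosomes to it, and a checkpoint holds the anaphase-promoting complex (APC/C) back until every chromosome is attached. Most of these genes are transcribed late in the cell cycle and shut off in G1. The DREAM and MuvB complexes do this together with MYBL2 and FOXM1, through a promoter element called the cell cycle genes homology region (CHR), usually with NF-Y bound to nearby CCAAT boxes. In a growing cell line their RNA therefore tends to follow the share of cells in G2 and mitosis. In bulk RNA, fewer cells in those phases and less RNA in each such cell cannot be told apart.

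Promoters of the members were read because their RNA levels went up and down together across the libraries, as described below. RefSeq (GRCh38.p14) gave a promoter for 31 of the 36 and none was read for AURKA, BIRC5, TPX2, TTK and UBE2C. The 31 genes had 38 annotated starts, 26 genes having 1 start each and CDC25C having 4. The 125 bases just before the start are printed for 8 members, 5′ to 3′ along the gene's own strand. Capitals mark TTTGAA, the commonest form of the CHR, and CCAAT, the NF-Y box, each searched on both strands, so that they also appear as TTCAAA and ATTGG. CCNB2 (chr15:59105021-59105145, plus strand), PLK1 (chr16:23678764-23678888, plus strand), CDC20 (chr1:43358856-43358980, plus strand) and CDK1 (chr10:60778353-60778477, plus strand, one of its annotated starts) show the elements at close range. MKI67 (chr10:128126424-128126548, minus strand) holds TTTGAA in 2 places, one of them sharing 1 base with an NF-Y box, and HMMR (chr5:163460507-163460631, plus strand) holds it in tandem. CCNB1 (chr5:69167025-69167149, plus strand) has NF-Y boxes and no TTTGAA, and KIF2C (chr1:44739712-44739836, plus strand) has neither in this stretch.
CCNB2: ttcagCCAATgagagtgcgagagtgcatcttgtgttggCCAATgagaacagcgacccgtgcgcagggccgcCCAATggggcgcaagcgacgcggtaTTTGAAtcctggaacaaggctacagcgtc
PLK1: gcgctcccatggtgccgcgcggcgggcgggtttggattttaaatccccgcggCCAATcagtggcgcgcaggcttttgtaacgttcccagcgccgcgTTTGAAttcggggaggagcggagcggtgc
CDC20: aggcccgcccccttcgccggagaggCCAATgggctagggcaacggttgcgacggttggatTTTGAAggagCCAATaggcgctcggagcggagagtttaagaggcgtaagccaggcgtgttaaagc
CDK1: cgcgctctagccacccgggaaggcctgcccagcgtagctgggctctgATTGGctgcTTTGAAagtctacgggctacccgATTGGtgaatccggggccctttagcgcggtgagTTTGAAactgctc
MKI67: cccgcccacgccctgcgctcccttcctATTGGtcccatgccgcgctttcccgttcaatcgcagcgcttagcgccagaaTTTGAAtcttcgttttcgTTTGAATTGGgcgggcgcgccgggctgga
HMMR: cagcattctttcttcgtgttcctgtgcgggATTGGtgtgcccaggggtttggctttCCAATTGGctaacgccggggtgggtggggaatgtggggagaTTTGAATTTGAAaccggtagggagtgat
CCNB1: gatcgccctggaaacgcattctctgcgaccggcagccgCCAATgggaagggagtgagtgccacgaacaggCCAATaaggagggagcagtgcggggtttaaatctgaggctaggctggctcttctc
KIF2C: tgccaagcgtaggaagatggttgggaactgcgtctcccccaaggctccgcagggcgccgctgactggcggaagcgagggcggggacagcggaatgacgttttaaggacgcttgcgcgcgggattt

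Within the window from 250 bases before to 50 bases after the start, TTTGAA was found in 22 of the 31 members (71.0%), against 18.2% of 27305 genes with a promoter in the same source. CCAAT was found in 24 members (77.4%) and in 39.7% of all genes, and both were found in 18 members (58.1%) and in 7.26% of all genes. The rarer CHR form TTCGAA was found in 2 members (6.45%), BUB1 and NDC80, and in 1.82% of all genes. In the 250 bases before the start alone, TTTGAA was in 18 members (58.1%; 16.1% of all genes), CCAAT again in 24 (37.0% of all genes) and TTCGAA in 0 (1.498% of all genes). Overlapping matches of the motifs, as in MKI67, were all counted. TTTGAA lay wholly within 70 bases before a start in 14 members (45.2%) and in 3.91% of all genes. In CCNB2 it began 29 bases before the start, with NF-Y boxes at 54, 87 and 120 bases, each 33 bases from the next. PLK1 also had it at 29 bases, with 1 NF-Y box at 73 bases, and HMMR at 22 and 28 bases. CDC20 had it at 65 bases, 10 bases upstream of an NF-Y box. In CDK1 it began 69 and 13 bases before this start, with NF-Y boxes 32 bases apart, the same distance as between the boxes of CCNB1. These matches describe letters in the reference sequence, and binding was not measured. TTTGAA and TTCGAA were the only CHR forms searched, so a member without them is not shown to lack a CHR.

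**Figure D1:**
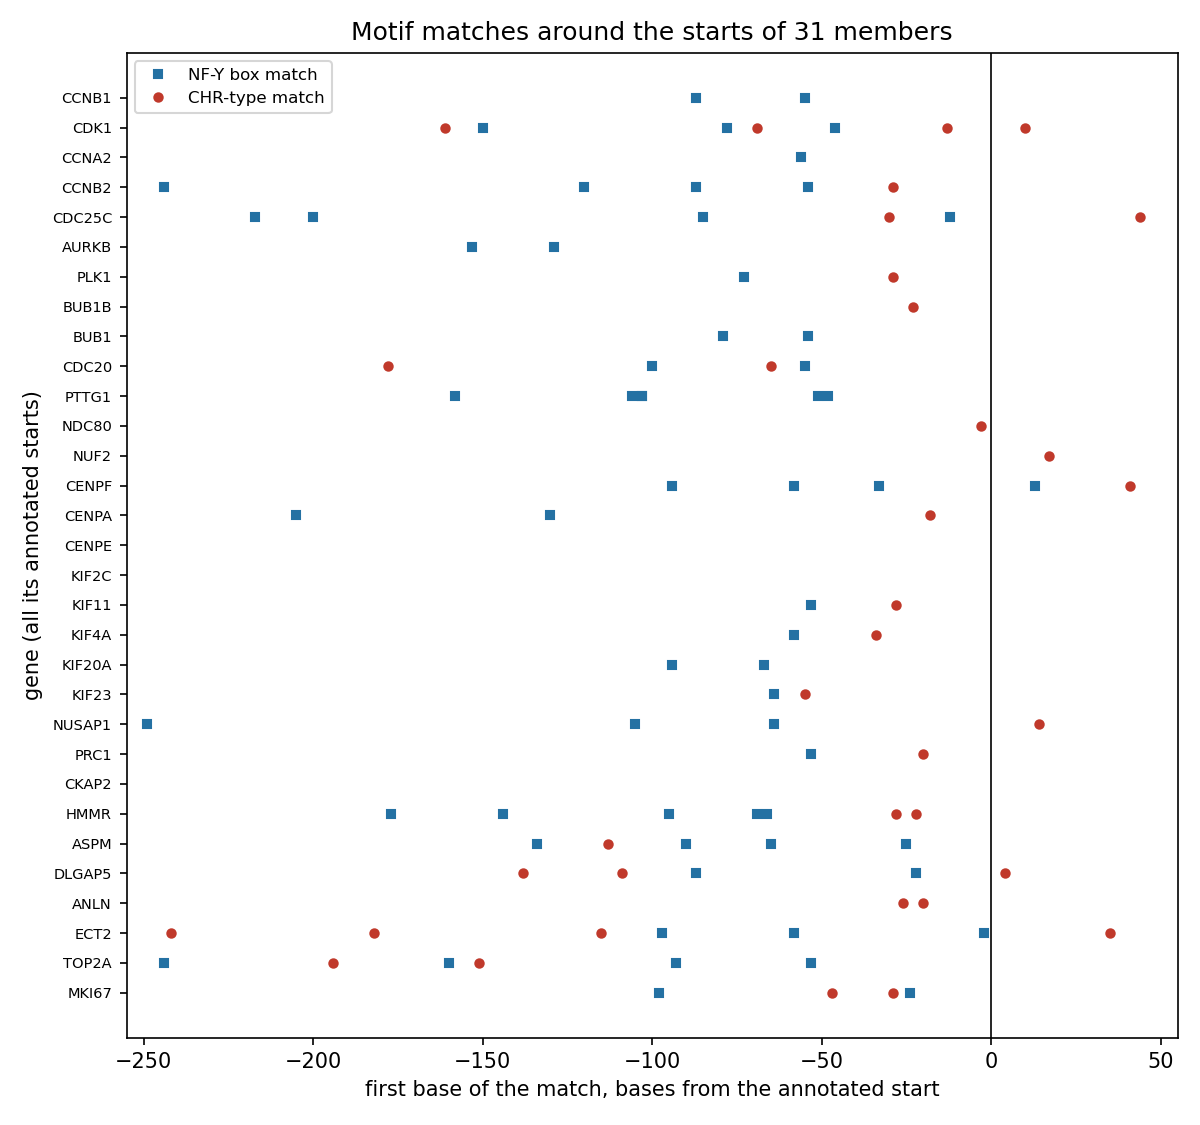
Position of each match relative to the annotated start (x axis, bases, 0 is the start) for the 31 members with a RefSeq promoter, 1 row per gene and all its starts. Points mark the first base of a match. Red points are CHR-type matches, here TTTGAA, which lie wholly within 70 bases before a start in 14 members. NDC80, not among them, has a match that begins just before its start and runs across it. Blue squares (NF-Y boxes) are in 24 members.

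The libraries held 38504854 to 48551215 reads in genes. Values are in RPKM, reads scaled by gene length in kilobases and by library size, so they can be compared between genes. Members had from 333 reads (CDC25C in vector library 2; 95% Poisson interval 298 to 371, for counting error only) to 30630 (ANLN). The counting error of a member in a library was at most 5.48% of its value, and for members with little spread it was close to that spread, as for UBE2C with SNX29P2 (coefficient of variation 1.29%, counting error up to 1.28%). OTUB2 itself read 37.6, 42.6 and 38.4 RPKM in the cells given it and 1.04 to 1.58 RPKM elsewhere, and SNX29P2 read 41.0, 55.1 and 47.6 RPKM in its cells and at most 0.0665 RPKM elsewhere. ES-2 was labelled an ovarian cancer line. Of the markers looked up for such a line, the keratins KRT7, KRT8 and KRT18 were at 25.7 RPKM or more in every library, and so was the mesenchymal gene VIM. PAX8 and EPCAM were at most 0.421 RPKM and WT1 at most 1.37 RPKM. Of 4 leukocyte markers, PTPRC (0.332 RPKM), CD3E (0.282) and LYZ (4.22) were highest in OTUB2 library 1, where the other libraries had at most 0.00506, 0 and 0.213 RPKM, and CD68 was at 28.6 to 35.3 RPKM throughout. The 4 leukocyte markers summed to 31.2 to 32.5 RPKM with the vector, 31.2 to 40.2 with OTUB2 and 28.8 to 33.0 with SNX29P2. The 4 endothelial markers summed to 17.8 to 23.9, 22.2 to 22.8 and 20.7 to 22.6 RPKM in the same order, nearly all of it CDH5, with VWF at most 0.00408 RPKM and PECAM1 at most 0.125 RPKM.

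Across the set, vector library 2 was the lowest of the 9 libraries for all 36 members, against 18.9% of the 16533 genes tested. The genes were chosen with this library's position already known, so it is given as a description with no test. Its values lay below the mean of vector libraries 1 and 3 by a median of 32.1% over the members, from 16.5% for CENPA to 52.6% for HMMR, and by a median of 0.113% over all genes. A shortfall of at least 25% was seen for 31 of 36 members and for 10.2% of all genes. By role the median shortfall was 42.1% for kinetochore genes, 39.9% for spindle assembly, 31.8% for kinases and checkpoint, 31.7% for cytokinesis, 31.3% for cyclins and CDK1, 30.4% for kinesins, 29.5% for anaphase onset and 25.9% for chromosome structure. Vector library 3, in turn, was above vector library 1 for 28 of 36 members (41.1% of all genes). The members' level in a library, the mean of their log2(RPKM + 0.1) after each gene is centred on its mean over the 9 libraries, was -0.09, -0.60 and 0.11 with the vector, 0.01, 0.07 and 0.19 with OTUB2, and 0.01, 0.10 and 0.20 with SNX29P2. Vector library 2 also had the fewest reads in genes (38504854), the part of which in its position was not tested. It stood apart at a level of -0.60. Vector library 1 (-0.09) was also below every overexpression library, and vector library 3 (0.11) lay among them.

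The spread within the vector group was wide. The coefficient of variation of a member (SD over mean, n = 3) had a median of 23.2% in the vector group, 7.44% in the OTUB2 group and 8.16% in the SNX29P2 group. It was largest in the vector group for 34 of 36 members and for 51.1% of all genes. The genes were chosen with the position of the lowest vector library already known, and the vector values include that library. The wide vector spread therefore restates its low level at least in part, and is given as a description with no test. The coefficient of variation without that library was not computed. Smaller differences between libraries were also shared. Library 1 was the lowest of its group in both overexpression groups for 23 of 36 members (21.4% of all genes), and a library numbered 3 was the highest of all 9 for 30 of 36 members (24.8% of all genes), 14 of them in SNX29P2 library 3 (11.1% of all genes).

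**Figure D2:**
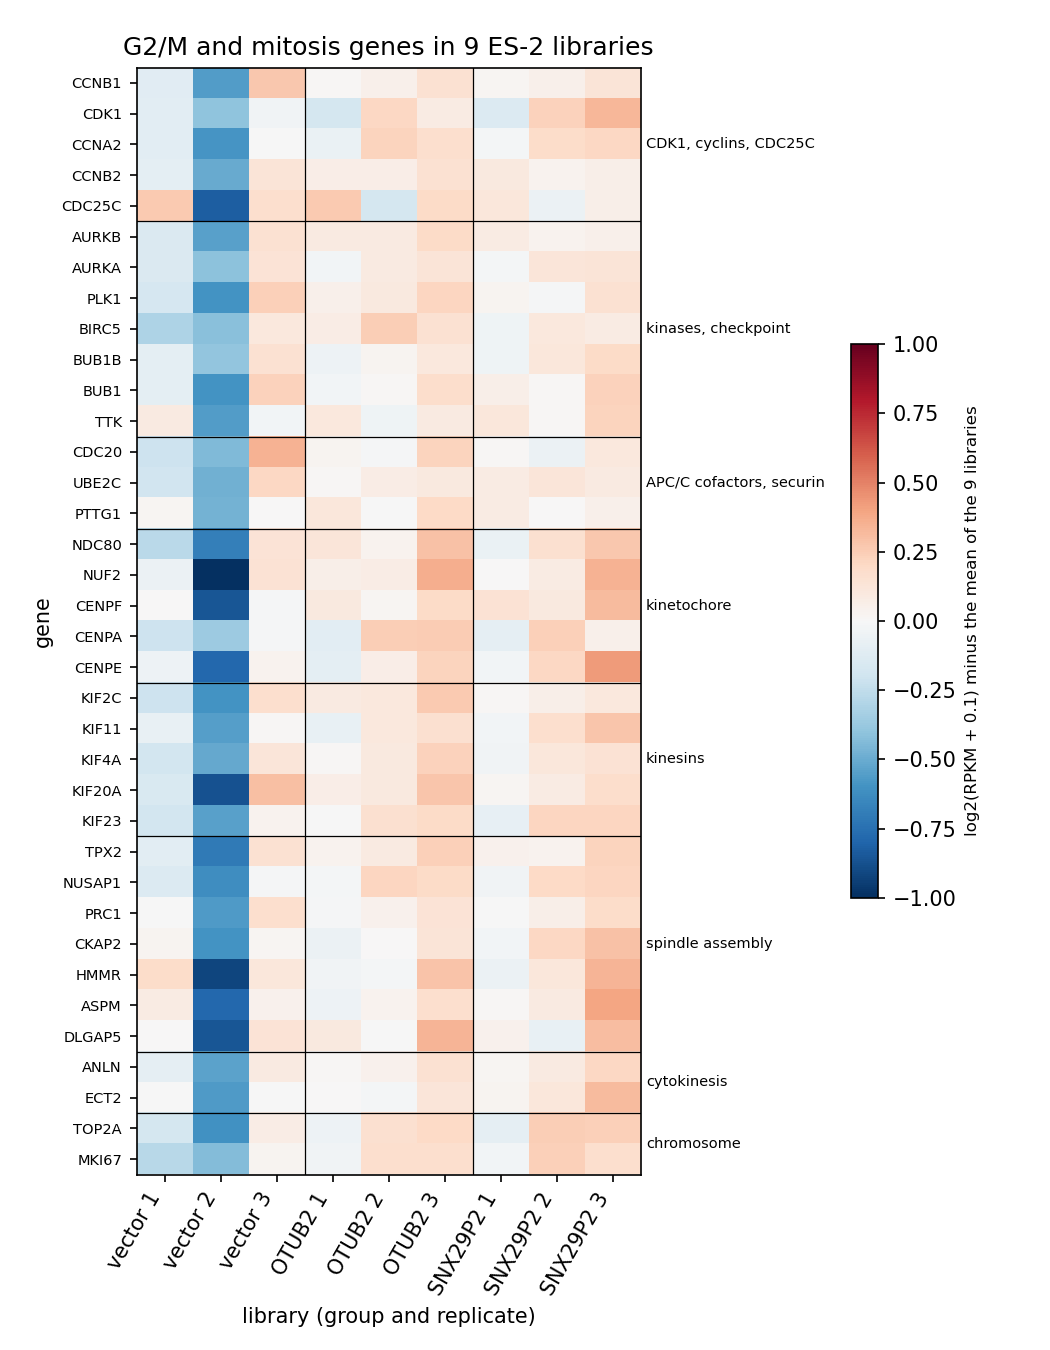
Log2(RPKM + 0.1) of each member minus its mean over the 9 libraries (colour), with libraries in columns and genes in rows grouped by role. The column of vector library 2 is the lowest in all 36 rows, and the columns of vector library 3 and of the overexpression libraries are mostly at or above 0.

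In the CDK1 module, CCNB1 (cyclin B1, the main activating partner of CDK1 at mitotic entry, chr5:69167010-69178245 in GRCh38) had the highest level. It was at 84.3, 61.8 and 110.1 RPKM in vector libraries 1 to 3, 92.1, 94.3 and 101 with OTUB2 and 92.3, 94.3 and 99.7 with SNX29P2. Its highest and its lowest value were both in vector libraries, so the vector range enclosed both other groups. CDK1 itself (chr10:60778331-60794852), the kinase that starts mitosis, was at 30.7, 24.9 and 32.3 RPKM with the vector, 29.3, 38.1 and 35.0 with OTUB2 and 29.95, 38.8 and 41.6 with SNX29P2. Its OTUB2 library 1 and SNX29P2 library 1 lay 19.8% and 25.5% below the mean of the other libraries of their group and overlapped the vector libraries. CCNA2, the cyclin of S and G2 phase, ranged from 21.8 to 38.3 RPKM, and CCNB2, the second B-type cyclin, from 21.1 to 33.4 RPKM. CDC25C, the phosphatase that removes the inhibitory phosphates from CDK1, was the lowest member of all. It was at 6.13, 2.84 and 5.75 RPKM with the vector, 6.13, 4.52 and 5.84 with OTUB2 and 5.53, 4.89 and 5.31 with SNX29P2. Unlike most members it was highest in vector library 1 and OTUB2 library 1.

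Among mitotic kinases, AURKB, the kinase of the chromosomal passenger complex (chr17:8204733-8210600), was at 51.6, 39.1 and 63.3 RPKM with the vector, 60.5, 60.6 and 64.9 with OTUB2 and 60.4, 58.4 and 59.2 with SNX29P2. AURKA, which matures centrosomes and the spindle (chr20:56369389-56392337), was at 48.4, 40.2 and 58.8 RPKM (vector), 52.4, 57.0 and 58.6 RPKM (OTUB2) and 52.7, 58.3 and 58.5 RPKM (SNX29P2). Both were lowest in vector library 2 and reached the level of the overexpression groups in vector library 3. PLK1, the Polo-like kinase required for entry, spindle formation and cytokinesis (chr16:23677656-23690367), was at 38.1, 28.1 and 50.3 RPKM with the vector, 44.3, 45.7 and 49.6 with OTUB2 and 43.5, 42.5 and 47.4 with SNX29P2. BIRC5, which encodes survivin, the passenger subunit that docks Aurora B (chr17:78214186-78225636), was at 25.2, 23.3 and 33.6 RPKM (vector), 32.8, 37.0 and 34.7 RPKM (OTUB2) and 30.2, 33.5 and 33.0 RPKM (SNX29P2). For BIRC5, vector libraries 1 and 2 were both below every overexpression library, and vector library 3 lay among them. Of the checkpoint kinases, BUB1B (chr15:40161023-40221136), which encodes the checkpoint component BUBR1, was at 21.8, 17.8 and 26.0 RPKM with the vector, 22.6, 23.8 and 25.2 with OTUB2 and 22.7, 25.4 and 26.8 with SNX29P2. BUB1, which recruits checkpoint proteins to kinetochores, ranged from 15.2 to 27.1 RPKM, and TTK, the kinase MPS1 that starts checkpoint signalling, from 10.9 to 18.8 RPKM.

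The 3 genes of anaphase onset included the highest member of the set. CDC20, the activator of the APC/C in mitosis (chr1:43358955-43363203), was at 184, 156 and 270.0 RPKM with the vector, 217, 210.2 and 247 with OTUB2 and 214, 204 and 228 with SNX29P2. The vector libraries spanned the whole range, and the overexpression libraries fell within it. UBE2C, the ubiquitin-conjugating enzyme that works with the APC/C (chr20:45812576-45816957), was at 95.5, 78.1 and 126 RPKM (vector), 109.8, 115 and 117 RPKM (OTUB2) and 116, 119 and 116 RPKM (SNX29P2). PTTG1, which encodes securin, the separase inhibitor that the APC/C removes (chr5:160421822-160428744), was at 49.1, 34.8 and 48.5 RPKM (vector), 52.5, 48.2 and 55.6 RPKM (OTUB2) and 51.3, 48.6 and 50.3 RPKM (SNX29P2). Vector libraries 1 and 3 of PTTG1 lay among the overexpression libraries, and vector library 2 alone was low.

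**Figure D3:**
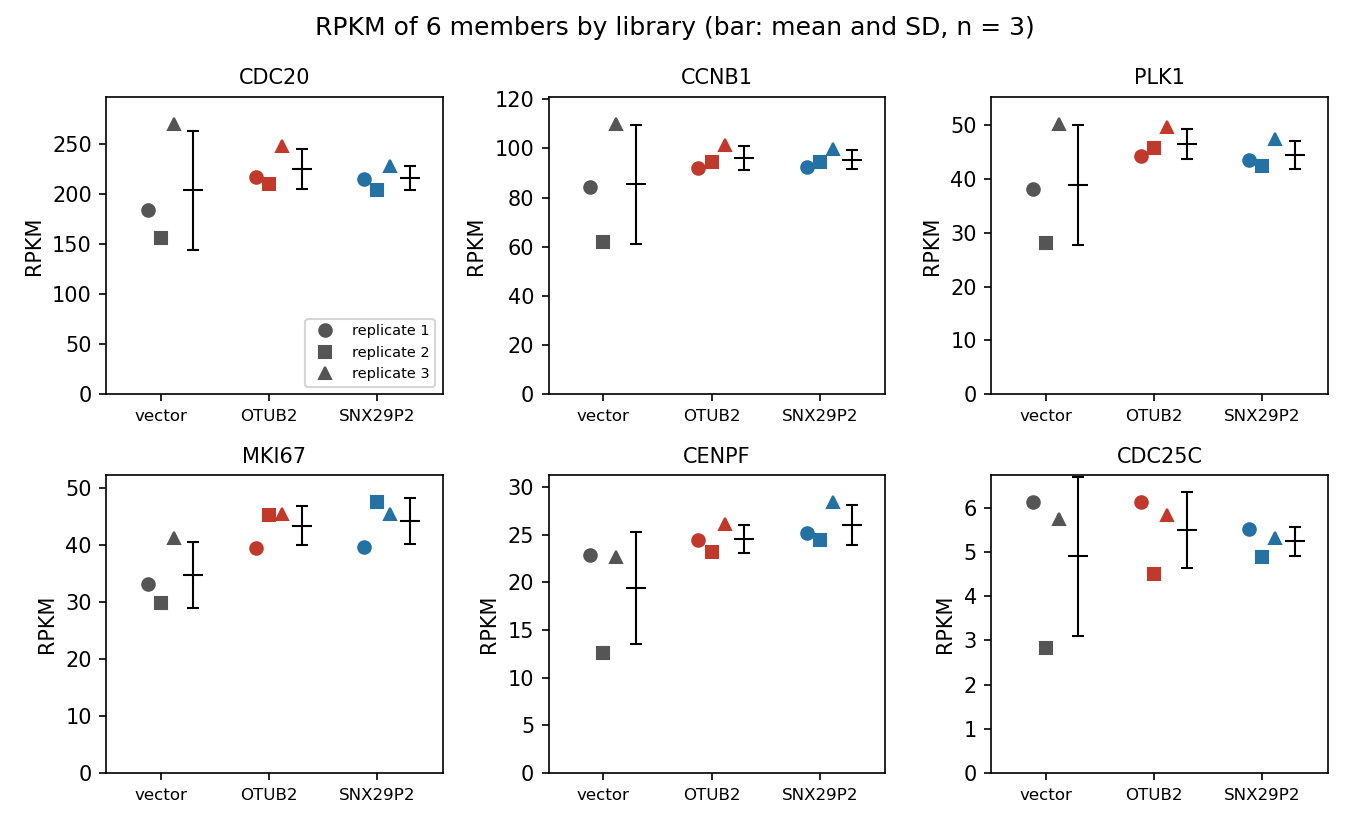
RPKM of 6 members (y axes start at 0) in each library, with circles, squares and triangles for libraries 1, 2 and 3 of a group and the bar beside them for the mean and SD (n = 3). In each panel the grey square, vector library 2, is the lowest point, and the OTUB2 and SNX29P2 libraries overlap in all 6 genes.

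At the kinetochore, NDC80 (chr18:2571511-2616635) and NUF2 (chr1:163266576-163355764) encode the paired subunits that hold microtubules. NDC80 was at 19.8, 14.8 and 26.2 RPKM with the vector, 26.0, 24.4 and 29.3 with OTUB2 and 22.8, 26.7 and 28.7 with SNX29P2. NUF2 was at 22.0, 11.3 and 25.3 RPKM (vector), 23.8, 24.01 and 29.3 RPKM (OTUB2) and 22.9, 24.2 and 29.1 RPKM (SNX29P2). NUF2 in vector library 2 was 52.3% below the mean of the other vector libraries, a larger shortfall than that of NDC80 (35.4%). CENPF, a large protein of the outer kinetochore (chr1:214603195-214664588), was at 22.9, 12.6 and 22.7 RPKM with the vector, 24.5, 23.1 and 26.1 with OTUB2 and 25.2, 24.4 and 28.4 with SNX29P2. All its vector libraries lay below all its overexpression libraries, by a margin of less than 1 RPKM for vector libraries 1 and 3. CENPE, the kinesin motor that brings chromosomes to the spindle equator (chr4:103105806-103198409), was at 7.82, 4.67 and 8.30 RPKM (vector), 7.59, 8.51 and 9.51 RPKM (OTUB2) and 7.98, 9.39 and 11.0 RPKM (SNX29P2). CENPA, the histone H3 variant that marks centromeres, had the smallest shortfall in vector library 2 (16.5%) and ranged from 13.5 to 20.6 RPKM.

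Of the kinesins, KIF2C, which depolymerises microtubules to correct attachments (chr1:44739818-44767767), was at 34.8, 26.6 and 45.1 RPKM with the vector, 42.7, 43.1 and 48.1 with OTUB2 and 40.4, 41.9 and 43.3 with SNX29P2. KIF11, the motor Eg5 that pushes spindle poles apart (chr10:92593286-92655395), was at 29.8, 21.4 and 31.6 RPKM (vector), 29.9, 33.8 and 35.1 RPKM (OTUB2) and 30.8, 35.3 and 38.1 RPKM (SNX29P2). In both genes vector library 3 overlapped the overexpression groups. The other members were KIF4A, a chromosome-bound motor of the midzone, KIF20A and KIF23, both motors of the central spindle. Their levels ranged from 15.9 to 26.7 RPKM for KIF4A, 10.7 to 24.3 for KIF20A and 11.95 to 20.3 for KIF23, and KIF20A had the largest shortfall of the kinesins in vector library 2 (48.9%). Library 1 was the lowest of both overexpression groups for all 5 kinesins.

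Among spindle assembly genes, TPX2, the activator and spindle anchor of Aurora A (chr20:31739271-31801805), was at 102, 67.7 and 122.7 RPKM with the vector, 113, 117 and 129.9 with OTUB2 and 114, 113 and 129 with SNX29P2. NUSAP1, which ties spindle microtubules to chromatin (chr15:41332694-41381050), was at 39.7, 28.2 and 43.3 RPKM (vector), 43.0, 50.6 and 49.9 RPKM (OTUB2) and 42.4, 50.04 and 50.5 RPKM (SNX29P2). In NUSAP1 all 3 groups again had 1 low library, library 2 with the vector and library 1 with OTUB2 and with SNX29P2. PRC1, the bundler of antiparallel microtubules in the midzone (chr15:90966038-90995629), was at 28.7, 19.4 and 32.3 RPKM with the vector, 28.6, 29.6 and 31.7 with OTUB2 and 28.6, 29.9 and 32.7 with SNX29P2. CKAP2, a spindle microtubule protein (chr13:52455429-52476628), was at 24.1, 15.6 and 23.97 RPKM (vector), 22.7, 23.7 and 25.8 RPKM (OTUB2) and 23.2, 27.2 and 28.9 RPKM (SNX29P2). ASPM, which acts at spindle poles (chr1:197084128-197146694), was at 19.3, 10.5 and 18.8 RPKM (vector), 17.6, 18.6 and 20.5 RPKM (OTUB2) and 18.4, 19.4 and 24.03 RPKM (SNX29P2). For PRC1, CKAP2 and ASPM, vector libraries 1 and 3 lay among the overexpression libraries. HMMR, a spindle-pole protein also known as a hyaluronan receptor, and DLGAP5, which stabilises kinetochore fibres, had shortfalls of 52.6% and 47.5% in vector library 2, with ranges of 11.9 to 28.7 and 9.12 to 21.0 RPKM.

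The cytokinesis genes were ANLN, the scaffold anillin of the cleavage furrow (chr7:36389806-36453791), and ECT2, the exchange factor that activates RhoA there (chr3:172750682-172821474). ANLN was at 87.9, 64.5 and 99.4 RPKM with the vector, 94.3, 96.1 and 104 with OTUB2 and 94.7, 99.5 and 108 with SNX29P2. ECT2 was at 26.1, 17.7 and 26.1 RPKM (vector), 26.4, 25.9 and 28.5 RPKM (OTUB2) and 26.7, 28.4 and 32.7 RPKM (SNX29P2), and its SNX29P2 libraries all lay above its vector libraries. Of the chromosome structure genes, TOP2A, the topoisomerase that untangles sister chromatids (chr17:40388516-40417950), was at 56.2, 41.8 and 66.8 RPKM with the vector, 61.4, 71.1 and 72.9 with OTUB2 and 59.8, 75.4 and 75.1 with SNX29P2. MKI67, the Ki-67 antigen used to mark dividing cells, which coats mitotic chromosomes (chr10:128096659-128126385), was at 33.2, 29.9 and 41.2 RPKM (vector), 39.4, 45.3 and 45.5 RPKM (OTUB2) and 39.7, 47.5 and 45.4 RPKM (SNX29P2). In both, vector library 3 exceeded OTUB2 library 1 and SNX29P2 library 1, so the groups overlapped.

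The first comparison asked how OTUB2 overexpression altered these genes relative to the vector. Every member had a higher mean of log2 values with OTUB2, but none passed the test. Log2 fold changes, differences of log2(RPKM + 0.1), ranged from 0.14 (BUB1B) to 0.47 (NUF2), with a median of 0.29, against a median of 0.01 over all genes. Fold changes above 0 were found for 36 of 36 members and for 52.0% of all genes. The kinetochore genes had the highest median of the 8 roles, 0.39, and the mitotic kinases and checkpoint the lowest, 0.21. This order rested on vector library 2: without it, chromosome structure was highest at 0.19, the kinetochore genes were at 0.12, the kinases at 0.07 and spindle assembly lowest at -0.00. The vector mean of NUF2 was 19.5 ± 7.32 RPKM and its OTUB2 mean was 25.7 ± 3.14 (± SD, n = 3). Its log2 fold change had an SE of 0.255 and a limma, Benjamini-Hochberg, adjusted p = 0.788. NDC80 had a log2 fold change of 0.42 (95% interval 0.02 to 0.82) and CENPF of 0.39 (-0.05 to 0.83). The 3 lowest were BUB1B at 0.14 (-0.14 to 0.42), CDC20 at 0.18 (-0.20 to 0.56) and PRC1 at 0.19 (-0.16 to 0.55).

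In limma's test over 16533 genes, 0 of 36 members were called at an adjusted p under 0.05, where 0.0181% of all genes were called. The smallest adjusted p of a member was 0.677, for BIRC5. An unadjusted p under 0.05 was found for 8 members, all higher with OTUB2 (3.62% of all genes were higher at this p and 6.73% were at it in either direction). limma voom on recovered reads gave 13 members at that p (6.60% of all genes) and called 0. OTUB2 and vector values were fully apart for 1 member, CENPF, and for 5.90% of all genes on the higher side. Without vector library 2 the median was 0.08, 29 of 36 members were above 0 (52.0% of all genes), 0 had an unadjusted p under 0.05 (3.25% of all genes on the higher side), and single members ranged from -0.12 (CDC25C) to 0.26 (BIRC5). The median 95% interval of a member reached 0.34 to either side on the log2 scale with all 9 libraries, a factor of 1.27.

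SNX29P2 overexpression was compared with the same vector libraries, so the outcome is not independent of the one for OTUB2. Again every member had a higher mean of log2 values than with the vector, and none passed the test. Fold changes ranged from 0.12 (CDC20) to 0.47 (CENPE) with a median of 0.30, against 0.01 over all genes, and 36 of 36 members were above 0, against 53.6% of all genes. The kinetochore genes had the highest median of the roles, 0.45, and the genes of anaphase onset the lowest, 0.20. Without vector library 2, chromosome structure was highest at 0.22, the kinetochore genes were at 0.19 and anaphase onset was again lowest at 0.04. CENPE had a mean of 6.93 ± 1.97 RPKM with the vector and 9.45 ± 1.49 with SNX29P2 (± SD, n = 3). Its log2 fold change had an SE of 0.207 and a limma, Benjamini-Hochberg, adjusted p = 0.602. CENPF had a log2 fold change of 0.47 (95% interval 0.03 to 0.92) and NUF2 of 0.45 (-0.12 to 1.02). The 3 lowest were CDC20 at 0.12 (-0.26 to 0.50), CDC25C at 0.17 (-0.40 to 0.73) and PTTG1 at 0.20 (-0.08 to 0.47).

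No member was called by limma here either, 0 of 36, where 0.0363% of all genes were called. The smallest adjusted p of a member was 0.539, for MKI67. An unadjusted p under 0.05 was found for 9 members, all higher with SNX29P2 (4.13% of all genes, and 8.21% in either direction), and limma voom gave 14 at that p (8.14% of all genes) and called 0. The groups did not overlap for CENPF and ECT2, 2 of 36 members, and for 6.13% of all genes on the higher side. Without vector library 2 the median was 0.10, 31 members were above 0 (54.0% of all genes), 0 had an unadjusted p under 0.05 (3.49% of all genes on the higher side), and members ranged from -0.18 (CDC25C) to 0.25 (MKI67). Leaving out OTUB2 library 1, where leukocyte markers were highest, gave a median of 0.34 for OTUB2 against the vector, with all 36 members above 0.

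**Figure D4:**
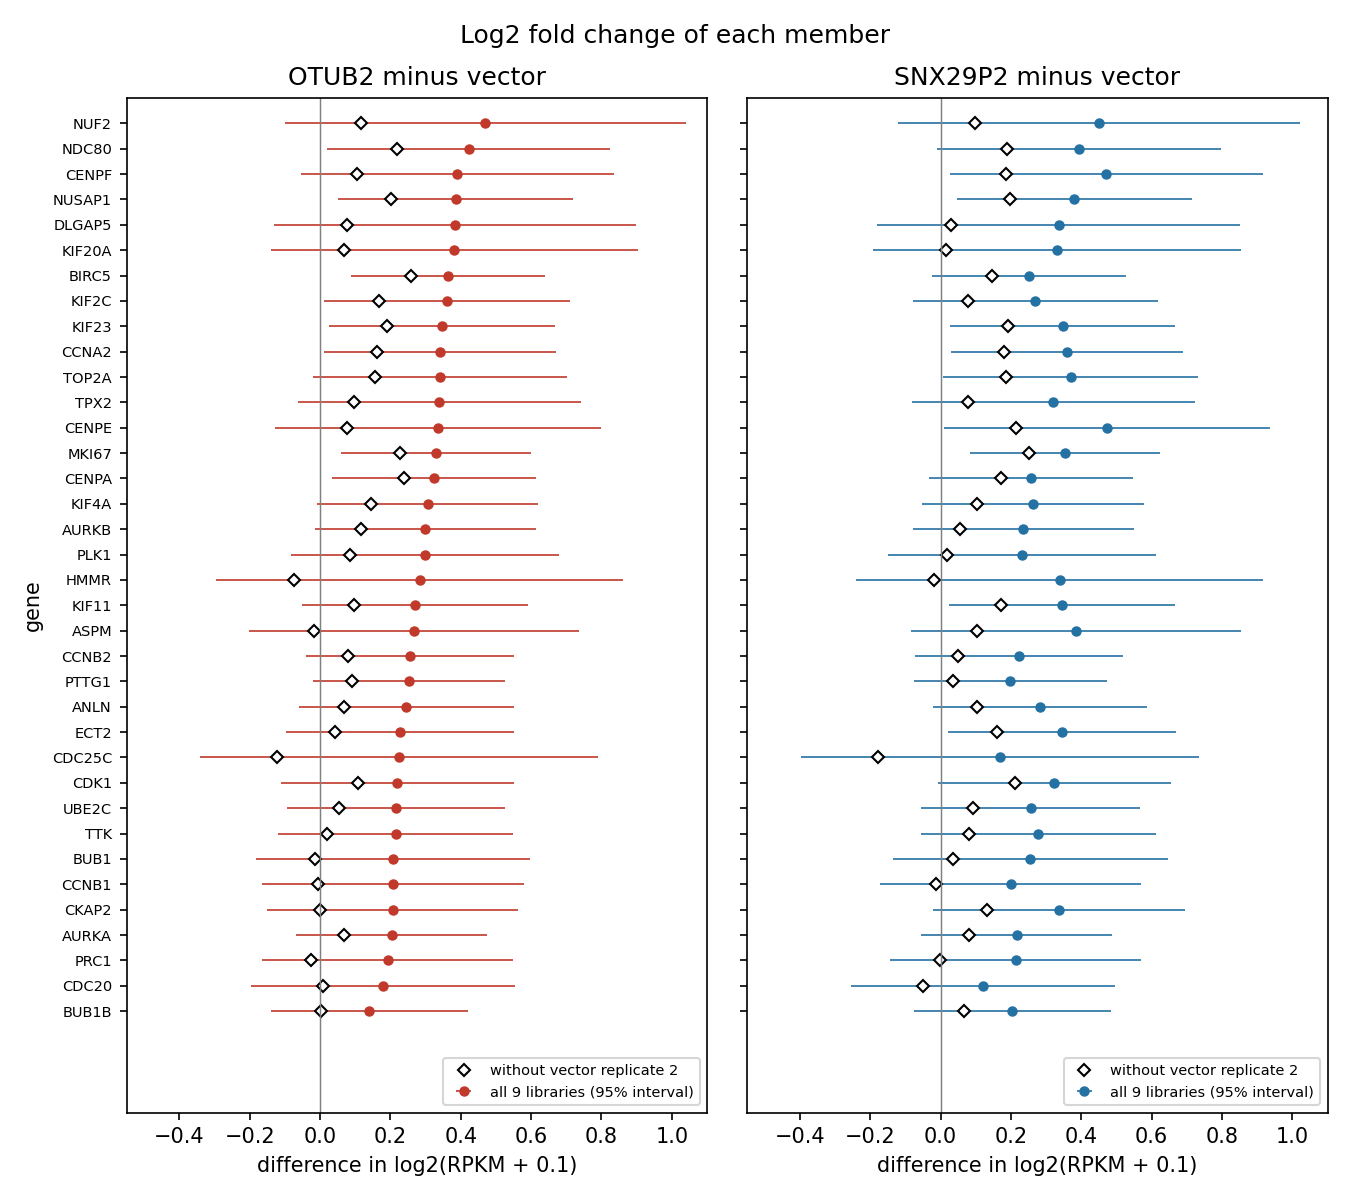
Difference in log2(RPKM + 0.1) of each member from the vector (x axis) for OTUB2 (left) and SNX29P2 (right), with 95% limma intervals from all 9 libraries (filled points) and the difference without vector replicate 2 (open diamonds). All filled points lie to the right of 0, and the diamonds gather near 0, between -0.18 and 0.26.

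The direct comparison of the overexpression groups used the vector libraries only for the estimate of the spread, and tested whether the effects of OTUB2 and SNX29P2 on these genes differed. Members were divided, 17 higher with OTUB2 and 19 higher with SNX29P2 (48.6% of all genes were higher with OTUB2), with a median log2 difference of -0.01. limma called 0 of 36 (0.0242% of all genes), with 0 at an unadjusted p under 0.05 (2.43% of all genes), and limma voom likewise gave 0 and 0 (2.09% of all genes at that p). The 3 highest with OTUB2 were BIRC5 at 0.11 (95% interval -0.16 to 0.39), KIF2C at 0.09 (-0.26 to 0.44) and PLK1 at 0.07 (-0.31 to 0.45). The 3 lowest were CENPE at -0.14 (95% interval -0.60 to 0.32), CKAP2 at -0.13 (-0.49 to 0.23) and ASPM at -0.12 (-0.59 to 0.35). The widest intervals reached -0.63 and 0.62, and no difference within a member's interval can be told from 0 with these libraries. These widths draw in part on the spread of vector library 2, which is in neither group. Without it the median interval of a member reached 0.22 to either side instead of 0.34, and 0 members were called. AURKB was the 1 member whose libraries did not overlap, all OTUB2 values being above all SNX29P2 values (4.30% of all genes on this side and 4.05% on the other), with a smallest OTUB2 value of 60.5 RPKM and a largest SNX29P2 value of 60.4 RPKM.

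Members resembled each other across libraries. Over all 9 libraries the correlation of log2 values between 2 members had a median of 0.897 over 630 pairs, from 0.340 to 0.997, and without vector library 2 the median was 0.613, from -0.774 to 0.989. All these points share libraries, so the correlations are descriptions. ANLN was most like the mean of the other members (r = 0.997 over 9 libraries and 0.982 over 8), followed by TPX2 (0.992 and 0.946) and NUF2 (0.990 and 0.931). CDC25C was least like it (0.774 and -0.354), and PTTG1 and TTK also lost most of the likeness once vector library 2 was left out (0.266 and 0.128 over 8 libraries). Members with TTTGAA before the start had a median shortfall of 31.3% in vector library 2 (18 genes) and those without had 35.4% (13 genes), with ranges of 16.5 to 52.6% and 28.6 to 52.3%.

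Among the 8238 genes averaging 5 RPKM or more, the 10 non-members most like the mean of the members, by Pearson r over 9 libraries, were NEK2 (0.994), RACGAP1 (0.989), RRM1 (0.984), HMGB2 (0.984), CEP55 (0.982), INCENP (0.980), CTD-2510F5.4 (0.979, a gene opposite to part of PRR11, from which its reads may not be separated), NCAPG (0.979), MELK (0.978) and PBK (0.976). Over the 8 libraries other than vector library 2, their r lay between 0.835 (MELK) and 0.969 (NEK2). NEK2, a centrosomal kinase, was at 14.0, 9.39 and 15.6 RPKM with the vector, 14.5, 15.7 and 17.3 with OTUB2 and 14.6, 16.2 and 17.7 with SNX29P2. As for the members, vector library 2 was its lowest. The 5 genes most opposite to the members were C16orf58 (-0.988), TMEM185B (-0.984), HDLBP (-0.976), TOP1MT (-0.968) and SIPA1L3 (-0.959). C16orf58 was at 17.6, 20.5 and 16.2 RPKM with the vector and between 15.6 and 17.2 RPKM in the other groups, so its highest value was in vector library 2. Of the 50 most alike genes, 12 were on a list of 56 other mitotic genes, of which 53 were abundant enough to compare. The median r of those 53 with the members was 0.890, against 0.0776 over all genes, and 0.678 against 0.0378 without vector library 2.

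Other genes of the pathway were followed through lists chosen by function, with earlier results of these data known, so their counts are descriptions. The 56 other mitotic genes were lowest in vector library 2 in 49 cases, where 18.9% of all genes were. Their level there was 0.41 below the mean of the other vector libraries on the log2 scale, against 0.61 for the members. Of these 56, 54 were above 0 for each of OTUB2 and SNX29P2 against the vector, with medians of 0.21 and 0.20 that became 0.06 and 0.07 without vector library 2. SGO1, the protector of centromeric cohesion, and CASC5 (KNL1), the kinetochore scaffold, had the smallest p. SGO1 was at 5.61, 4.30 and 5.45 RPKM with the vector, 5.39, 5.79 and 6.69 with OTUB2 and 6.31, 6.47 and 7.06 with SNX29P2, and CASC5 at 3.84, 3.08 and 3.81 RPKM (vector), 4.11, 4.67 and 4.60 RPKM (OTUB2) and 3.94, 5.10 and 5.11 RPKM (SNX29P2). The largest of their log2 fold changes was 0.39 for CASC5 with SNX29P2 (SE 0.129; limma, adjusted p = 0.534). Tubulins, the building blocks of the spindle and of interphase microtubules, were lowest in vector library 2 in 8 of 8 cases, by 0.66, and had medians of 0.12 and 0.05 against the vector that became -0.11 and -0.17 without that library. TUBG1, the gamma-tubulin of centrosomes, was at 50.5, 36.6 and 59.4 RPKM (vector), 53.6, 51.3 and 60.2 RPKM (OTUB2) and 50.3, 46.1 and 52.5 RPKM (SNX29P2), and TUBB2A at 7.99, 7.10 and 9.09 RPKM (vector), 10.7, 8.92 and 8.08 RPKM (OTUB2) and 9.65, 8.12 and 7.61 RPKM (SNX29P2), again with vector library 2 lowest.

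Genes of the preceding G1/S transition were mostly not lowest in vector library 2. Of 20 genes for DNA replication and its licensing, 4 were lowest in vector library 2, near the 18.9% of all genes that were. In the same library 8 of the 20 were highest, against 2808 of all 16533 genes tested. The list's level there was 0.11 above the other vector libraries. TYMS, the thymidylate synthase, was at 104, 97.9 and 124 RPKM with the vector, 125.4, 130.1 and 129 with OTUB2 and 118, 123.5 and 129 with SNX29P2, and CDT1, a licensing factor, at 23.5, 26.0 and 23.7 RPKM (vector), 27.1, 22.9 and 23.3 RPKM (OTUB2) and 22.5, 20.9 and 18.8 RPKM (SNX29P2). The transcriptional regulators were mixed, with 4 of 20 lowest in vector library 2, again near that share of all genes. Their level there was 0.05 above the other vector libraries. FOXM1, the activator of G2/M genes, was like the members lowest in vector library 2. It was at 38.0, 27.7 and 41.8 RPKM with the vector, 45.5, 41.4 and 43.5 with OTUB2 and 43.8, 40.9 and 42.6 with SNX29P2. Unlike most members, FOXM1 was highest in library 1 of both overexpression groups. MYBL2, its partner on the MuvB complex, was not lowest in vector library 2. Its values were 19.4, 22.9 and 23.1 RPKM (vector), 26.6, 25.2 and 27.6 RPKM (OTUB2) and 22.6, 23.7 and 23.8 RPKM (SNX29P2). The vector libraries of MYBL2 all lay below its OTUB2 libraries (log2 fold change 0.28, SE 0.0786, limma adjusted p = 0.598). The same held for 5 of the 20 regulators and for 5.90% of all genes. LIN9, a MuvB subunit, was at 4.20, 3.99 and 4.63 RPKM (vector), 4.80, 5.34 and 4.69 RPKM (OTUB2) and 5.08, 5.83 and 5.47 RPKM (SNX29P2), its vector libraries also all below the others (adjusted p = 0.488 with SNX29P2 by limma). With SNX29P2, 2 of the 20 regulators were apart on the higher side, against 6.13% of all genes. MYBL2 and LIN9 had the smallest p of this list, which favours such separation.

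Of 16 genes of the APC/C, 7 were lowest in vector library 2 (18.9% of all genes were). The list's level there was 0.10 below the other vector libraries. ANAPC13 was at 43.0, 45.1 and 49.2 RPKM (vector), 48.7, 52.8 and 52.2 RPKM (OTUB2) and 50.6, 52.8 and 49.5 RPKM (SNX29P2) and ANAPC15 at 9.32, 9.29 and 9.72 RPKM (vector), 11.7, 10.2 and 10.5 RPKM (OTUB2) and 11.6, 11.1 and 9.99 RPKM (SNX29P2), both subunits of the complex. Of the CDK inhibitors, 4 of 9 tested were lowest in vector library 2, with a list level 0.39 below the others. CDKN1A, which encodes p21, was at 2.41, 1.499 and 1.79 RPKM (vector), 1.499, 1.49 and 1.30 RPKM (OTUB2) and 1.76, 1.56 and 1.86 RPKM (SNX29P2), highest in vector library 1. CDKN2D (p19) was at 3.27, 2.16 and 3.20 RPKM (vector), 4.61, 4.44 and 4.03 RPKM (OTUB2) and 3.48, 3.40 and 3.09 RPKM (SNX29P2) and CDKN2C (p18) at 7.99, 7.19 and 9.77 RPKM (vector), 10.7, 12.7 and 11.3 RPKM (OTUB2) and 9.61, 11.5 and 10.8 RPKM (SNX29P2). The OTUB2 libraries of both lay above their vector libraries, with log2 fold changes of 0.60 and 0.47 (limma, adjusted p = 0.527 and 0.532). They were the 2 of 9 inhibitors apart in this way, against 5.90% of all genes. Both were named for the smallest p of the list, which favours such separation. limma called 0 genes of these lists in any comparison, and so did limma voom. At an unadjusted p under 0.05, limma gave 8 of the 56 other mitotic genes for OTUB2 against the vector and 8 for SNX29P2, and voom gave 14 and 17. Of all genes, 6.73% and 8.21% were at that p by limma and 6.60% and 8.14% by voom. Over the regulators, APC/C genes, CDK inhibitors, G1/S genes and tubulins, limma gave 3, 3, 2, 1 and 0 genes for OTUB2 and 1, 2, 2, 2 and 0 for SNX29P2 at that p, and voom gave 3, 2, 2, 1 and 0 and 2, 2, 3, 2 and 0. The 1 of 20 G1/S genes with OTUB2 and the 1 of 20 regulators with SNX29P2 were below those shares of all genes.

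**Figure D5:**
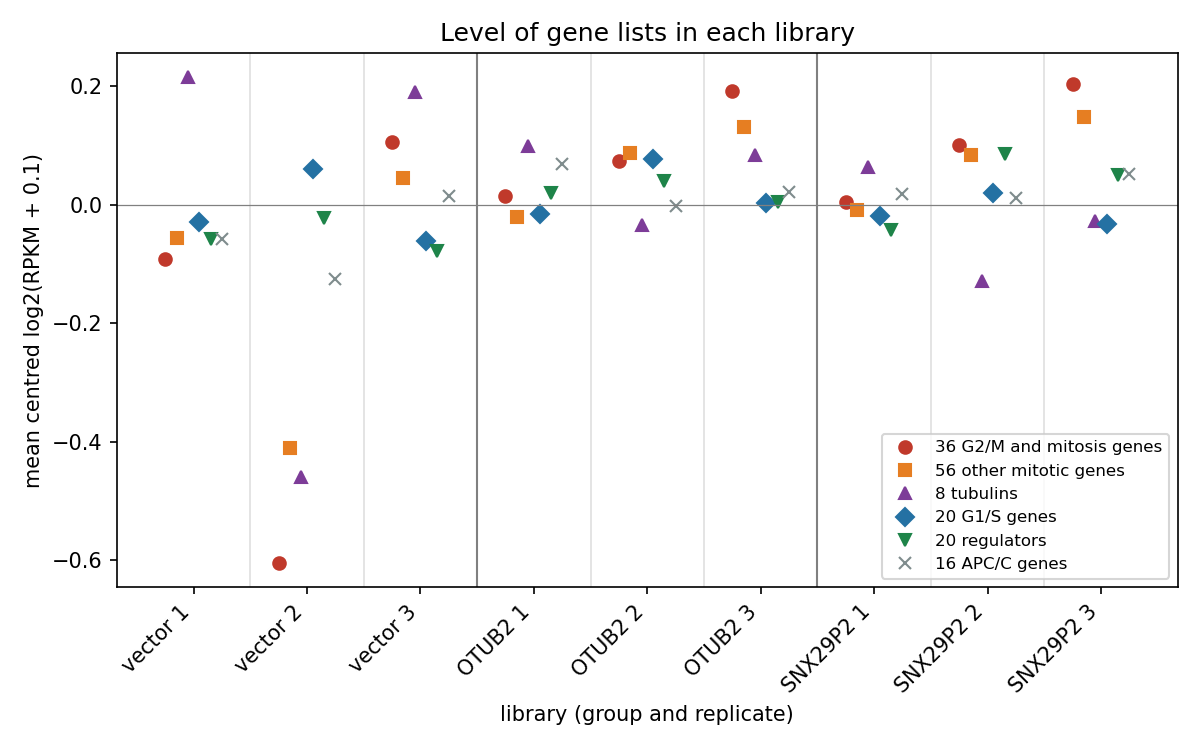
Mean centred log2(RPKM + 0.1) of 6 gene lists (y axis) in each library (x axis). In vector library 2 the members (-0.60), the other mitotic genes (-0.41) and the tubulins (-0.46) are far below 0, while G1/S genes (0.06) and regulators (-0.02) are not, and the lists lie between -0.13 and 0.21 in the other 8 libraries.

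Some members share exons with other genes, and how the counting used strand is not given in the sources used here. On the opposite strand, 53.8% of the length of CCNA2 overlaps EXOSC9, 47.3% of PRC1 overlaps PRC1-AS1, 45.6% of CDC25C overlaps FAM53C, 37.5% of KIF23 overlaps RP11-253M7.1 and 21.5% of PLK1 overlaps CTD-2196E14.5. On the same strand, 44.0% of BUB1B is shared with BUB1B-PAK6 and 26.0% of CENPA with SLC35F6. Reads of these genes and of their neighbours cannot be told apart here, so their levels are uncertain.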

How the data were processed

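The authors deposited RPKM values per gene for 9 libraries in 1 table. Per the submitters' processing notes the genome build was GRCh38. What aligned and counted the reads, and whether strand was used, was not given in the sources used here. The 36 members and all gene lists were chosen with earlier results of these data known. The test took genes that reached 0.5 RPKM in 3 or more libraries (16533 of 32997, all 36 members among them) and used limma 3.58.1 (R 4.3.3) on log2(RPKM + 0.1), with a trended variance and all 9 libraries in 1 fit. Benjamini-Hochberg adjustment was over all genes tested, and a gene was called under 0.05. On this scale the change of low genes is understated.

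Multiplied by gene length, 100% of low RPKM values (under 1000 reads) came out as whole reads within 0.05 of a read, so depth was recovered. limma voom on those reads was added after seeing the data and called 10 genes for SNX29P2 against the vector. Genes were named by a rule: the 2 members of each role with the highest mean RPKM, the 3 highest and 3 lowest fold changes of each comparison, the called genes or else the 2 with the smallest p of each other list, FOXM1, MYBL2, CDKN1A, OTUB2 and SNX29P2, and the 10 genes most like and 5 least like the members' level. The other lists were 9 in number, with 148 entries, of which 2 had no match and 2 matched by an older symbol. An item of the marker lists is not reported here. Among the others, VIM and KRT8, CD68 and CDH5 had the smallest p, and limma and voom each called 0 genes (unadjusted p under 0.05 for VIM alone, lower in both overexpression groups).

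Replicate numbers in the labels pair the OTUB2 with the SNX29P2 libraries by the correlation of deviations from the group means over genes (0.270, 0.259 and 0.153 for numbers 1, 2 and 3). By the same measure, each vector library was most like the OTUB2 library of its own number (0.0506, 0.193 and 0.139). With SNX29P2 (-0.0178, 0.151 and 0.104) this held for numbers 2 and 3, while vector library 1 was most like SNX29P2 library 3 (0.0502). Promoters came from RefSeq (GRCh38.p14), 35116 starts of 27305 genes. The alternatives numbered 20. The fit was tested on simulated data. Python 3.11.15 with pandas 2.3.3, numpy 2.4.6 and matplotlib 3.10.9 was used for the rest.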

Additional observations from a re-analysis of the deposited data

How the results depend on the processing

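No member was called under any of the alternatives run. Uncalled members changed sign under some: against the vector, 7 members with OTUB2 and 5 with SNX29P2 were below 0 without vector library 2 (CDC25C at -0.12 and -0.18), and 3 and 4 without the libraries numbered 2. Between OTUB2 and SNX29P2, where differences were near 0, up to 9 members changed sign when 1 overexpression library was left out. The numbers of all genes called were small and moved. For OTUB2 against the vector (3 genes), 7 were called with no filter, 1 with only the groups compared and 1 without the libraries numbered 2, and leaving out 1 library each gave 1 to 8 (8 without vector library 3, 1 without vector library 1 or any 1 OTUB2 library). For SNX29P2 against the vector (6 genes), 1 was called with a filter of 1 RPKM in 6 libraries, 3 without the libraries numbered 2 and 10 by limma voom, and leaving out 1 library each gave 4 to 8. For OTUB2 against SNX29P2 (4 genes), 1 was called with that filter, and leaving out 1 library each gave 4 to 5. The number of members higher with OTUB2 than with SNX29P2 was 17, and 8 to 25 when 1 library was left out (8 without OTUB2 library 3, 10 without SNX29P2 library 1). TTCGAA was in 0 members in the window of 250 bases before the start alone. Apart from the smaller number of genes or samples, the cause was not tested. The level of the members in vector library 2 stayed between -0.61 and -0.58 over the scalings and pseudocounts tried. With the replicate number as a block, 4, 9 and 4 genes were called in the 3 comparisons, 0 of them members, and 14, 13 and 0 members had an unadjusted p under 0.05, where 11.7%, 13.7% and 4.71% of all genes did. The block changed no other call, and not every library was most like the one with its own number. The largest counting error of a member was 5.48% of its value, and the part of depth in the differences was not tested. edgeR on recovered reads was planned and not run, and limma voom was run on the same reads.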
